A study of Mus musculus with 27 samples.

Results

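The genes of the proteasome were followed along the gut of mice that ate arsenic. The 48 genes were those of 52550 in the count table whose Ensembl identifier carries a protein-coding mouse symbol made of Psm, a letter from a to g and a number, so that pseudogenes were left out. The rule takes genes by name and not by any measured value, but the members were chosen with earlier results of these data known. Messenger RNA was sequenced from the colon, the cecum and the ileum of male C57BL/6 mice, which were 6 weeks old at the start and were fed for 60 days after 7 days of acclimatization. One diet was standard feed with arsenic at 30 µg per g, given as sodium arsenite (72.7%), sodium DMA (19%), sodium arsenate (7.3%) and sodium MMA (1%), and the other was standard feed alone. The 27 libraries were colon arsenic (n = 4), colon control (n = 5), cecum arsenic (n = 5), cecum control (n = 4), ileum arsenic (n = 5) and ileum control (n = 4). Each diet had 10 mice, and the labels number the libraries without saying that an equal number in different regions means the same mouse.

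The proteasome is the main protease of the cytosol and nucleus and degrades proteins tagged with ubiquitin. Its barrel, the core particle, is built from alpha and beta subunits, and the regulatory particle on its end holds ATPases that unfold the substrate and non-ATPase subunits that bind and remove ubiquitin. In cells that have met interferon gamma, Psmb8, Psmb9 and Psmb10 take the places of the standard catalytic subunits Psmb5, Psmb6 and Psmb7 to form the immunoproteasome, which favours peptides for MHC class I, and Psme1 and Psme2 form the activator PA28. Dedicated chaperones assemble both particles and are not part of the finished enzyme.

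Of the 48 genes, 46 had enough counts to be tested. Psma8, a testis form of an alpha subunit, reached at most 8 counts in a library, and Psmb11, the catalytic subunit of the thymus, at most 3. The 46 comprised 31 standard subunits of the core and regulatory particles, 5 genes of the immunoproteasome and PA28, and 10 others, namely 7 assembly chaperones, the nuclear activators Psme3 and Psme4, and the regulator Psmf1. Together the members took between 0.2735% and 0.5415% of the counts of a library, out of 15717600 to 18208518 counts. Levels are counts scaled to library size (CPM) after TMM scaling over all 27 libraries. Levels of different genes are set side by side only as CPM per kb of exon, with all annotated exons of a gene merged. A call is a Benjamini-Hochberg adjusted p under 0.05 over all genes tested in that comparison, and all p-values measure the spread between libraries. The tissues are bulk samples, so fewer cells of a type and less RNA per cell cannot be told apart.

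The 7 markers listed for ileum position summed to 14950 to 35940 CPM in ileum libraries and to at most 2162 CPM in any other. The ileal bile acid carrier Fabp6 was at 6.13 and 1.33 CPM in ileum arsenic libraries 14 and 15, against 218.6 to 4272 CPM in the other ileum libraries. Library 14 had the lowest sum of the markers (14950 CPM) and library 15 the highest (35940 CPM). The sum therefore does not tell libraries low in Fabp6 from the rest of the ileum. For comparisons that use these libraries, the number of members called is also given without them, except for the averaged diet effect.

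Promoters of 4 members are shown because their genes carry the patterns described here: Psmb9 of the immunoproteasome, its relative Psmb5 of the standard enzyme, Psme1 of PA28 and the chaperone Psmd5. Each run is RefSeq sequence of GRCm38.p6, 5′ to 3′ on the strand of the gene, from 250 bases before to 30 after the start site. Capitals mark matches of 5 motifs searched on both strands. These were TGACNNNGC (the antioxidant response element, which NRF1 and NRF2 bind), GAANNTTC (a heat shock unit), the core of the interferon-stimulated response element, CCAAT, and GCGGAAG (an ETS-like motif).
Psmb9, chr17:34187301-34187580, minus strand: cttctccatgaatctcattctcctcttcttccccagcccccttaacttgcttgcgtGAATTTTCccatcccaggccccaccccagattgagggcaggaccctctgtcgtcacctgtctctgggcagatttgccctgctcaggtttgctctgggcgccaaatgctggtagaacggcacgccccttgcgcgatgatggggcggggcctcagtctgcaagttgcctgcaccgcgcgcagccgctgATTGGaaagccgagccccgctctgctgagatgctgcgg
Psmb5, chr14:54617966-54618245, minus strand: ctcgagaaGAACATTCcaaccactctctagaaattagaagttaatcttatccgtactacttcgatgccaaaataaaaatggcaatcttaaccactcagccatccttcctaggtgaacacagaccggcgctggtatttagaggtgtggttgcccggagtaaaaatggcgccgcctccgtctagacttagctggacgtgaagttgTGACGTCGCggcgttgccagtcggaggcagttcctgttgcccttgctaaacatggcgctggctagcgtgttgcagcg
Psme1, chr14:55578244-55578523, plus strand: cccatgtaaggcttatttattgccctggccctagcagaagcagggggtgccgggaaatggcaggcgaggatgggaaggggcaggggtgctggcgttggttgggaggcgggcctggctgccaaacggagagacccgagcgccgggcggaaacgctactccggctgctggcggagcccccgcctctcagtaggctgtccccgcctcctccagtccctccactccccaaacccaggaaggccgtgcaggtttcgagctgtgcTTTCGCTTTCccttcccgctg
Psmd5, chr2:34870933-34871212, minus strand: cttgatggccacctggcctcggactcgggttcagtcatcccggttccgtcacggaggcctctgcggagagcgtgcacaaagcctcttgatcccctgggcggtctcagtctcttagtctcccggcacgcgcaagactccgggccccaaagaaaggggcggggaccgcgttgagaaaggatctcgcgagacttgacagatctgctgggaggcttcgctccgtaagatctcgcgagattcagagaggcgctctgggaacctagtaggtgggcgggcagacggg
Psmb9 held GAANNTTC and the reverse of CCAAT, Psmb5 GAANNTTC and TGACNNNGC, Psme1 the reverse of the interferon element just after its start, and Psmd5 none of the 5. Over windows of 300 bases, 40 members had a RefSeq promoter. TGACNNNGC was in 6 of these 40, against 13.991% of 27025 genes. GAANNTTC was in 3 (7.5%), against 9.036%, and CCAAT in 14, against 41.058%. The interferon element was in 5 (12.5%), against 3.993%, and of the 5 genes of the immunoproteasome and PA28 it was in Psme1 alone. GCGGAAG was in 9 (22.5%), against 6.527%, and in 0 of those 5. A match of letters is a description and not evidence that a factor binds.

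Along the gut the colon had the lowest level of nearly every member. In arsenic mice the mean was lowest in the colon for 42 of 46 members, and in control mice for 39. The ileum held the highest mean for 34 members in arsenic mice and 24 in control mice, and the cecum for 12 and 22; no member peaked in the colon. The summed CPM of the 31 standard subunits was 2245 ± 70.8 in colon arsenic, 2357 ± 281 in colon control, 3069 ± 75.2 in cecum arsenic, 3250 ± 172 in cecum control, 3446 ± 142 in ileum arsenic and 3291 ± 86.3 in ileum control (SD, n as listed above). The heatmap of every library shows low colon columns in almost all rows.

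**Figure D1:**
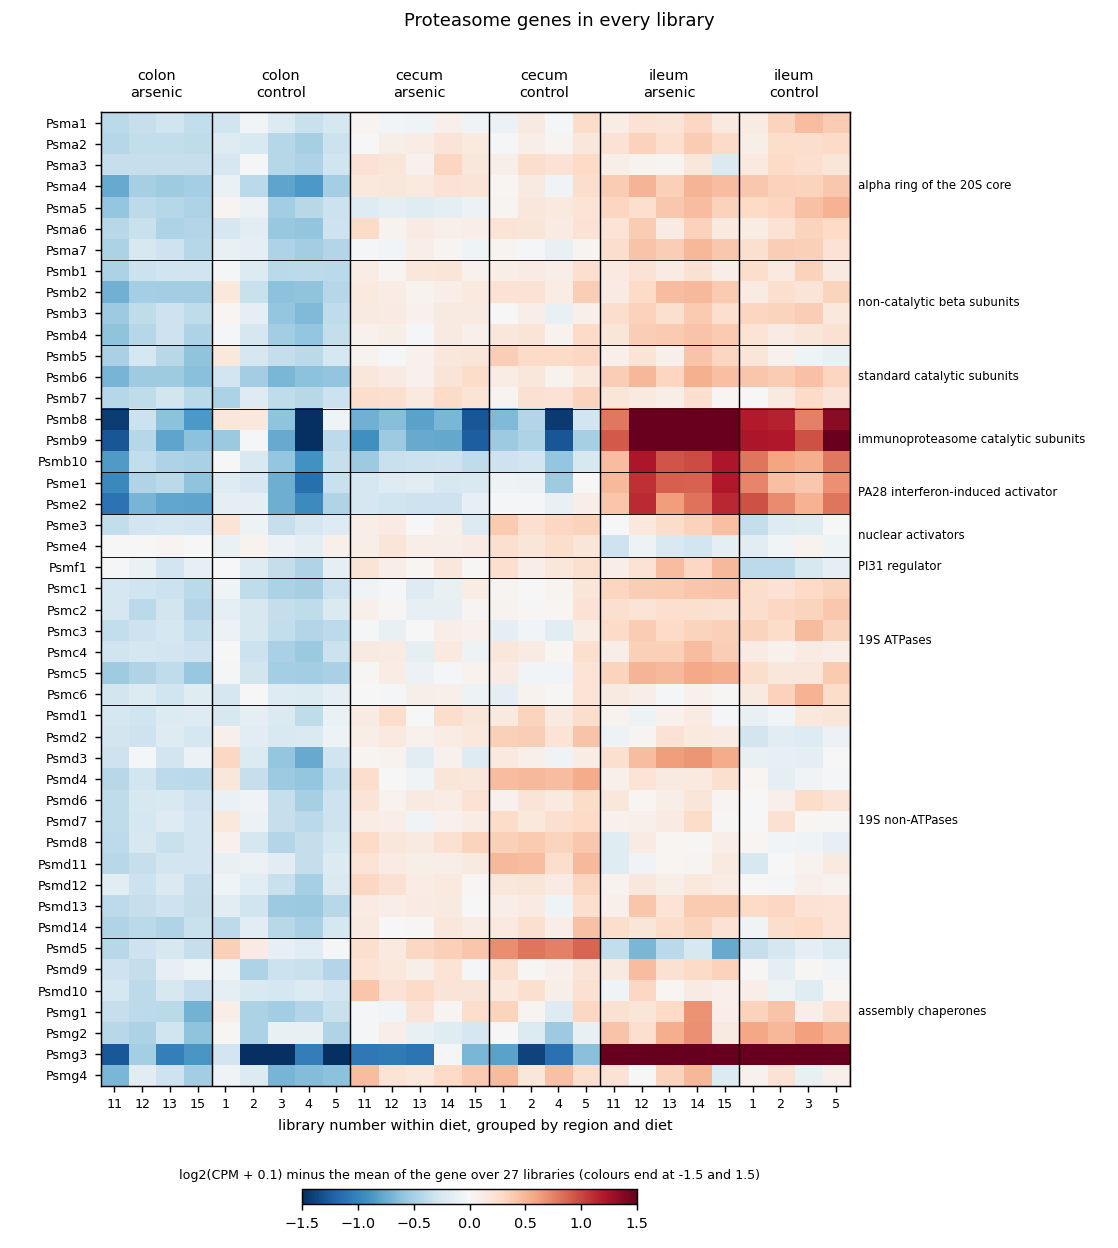
Each row is one of 46 proteasome genes, each column 1 of 27 libraries, and the colour is log2(CPM + 0.1) minus the mean of the gene. Colon columns are low for nearly all rows, while Psmb8, Psmb9 and Psmg3 have their highest values in the ileum.

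Most of the family was lower in the colon than in the cecum. In arsenic mice 35 of 46 members were lower in the colon and 0 higher, where 38.6% of 17022 genes were called and 16.2% were called lower. In control mice 38 were lower and 0 higher, where 47.2% of 16882 genes were called and 25.3% were called lower. The arsenic and control fits share no library, and 35 members were lower in both, which is the whole arsenic list and 92.1% of the control list. The median log2 change of the members was -0.35 in arsenic mice and -0.42 in control mice, beside 0.017 and -0.0452 for all genes tested. The counts depend on the scaling: by total counts the all-gene median becomes 0.16 in arsenic mice and 0.24 in control mice and the members called number 18 and 8, all of them lower, while the member median relative to all genes is -0.363 and -0.376.

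Markers of the gut wall moved with this difference. All 7 smooth muscle markers were higher in the colon than in the cecum in both diets (median log2 change 1.16 in arsenic mice and 1.07 in control mice), with sums of 5859 to 8870 CPM in colon arsenic against 2812 to 4732 CPM in cecum arsenic, and of 4821 to 7059 CPM in colon control against 2447 to 3388 CPM in cecum control. All 6 fibroblast markers were higher too (median 0.993 and 1.099). Of 8 epithelial markers, 1 was higher and 1 lower in arsenic mice, and 0 were higher and 6 lower in control mice, with sums of 14890 to 17750 CPM in colon arsenic against 18230 to 21620 CPM in cecum arsenic, and of 15100 to 16660 CPM in colon control against 21460 to 23690 CPM in cecum control. Their part in the lower proteasome genes of the colon was not tested.

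Among the alpha subunits, Psma4 had the largest drop, with a log2 change of -0.66 ± 0.071 in arsenic mice and -0.60 ± 0.13 in control mice (SE, edgeR adjusted p = 7.25e-06 and 0.00187). Among the catalytic subunits it was Psmb6, the caspase-like site. Psmb6 had 61.19, 68.74, 68.62 and 64.27 CPM in colon arsenic against 112, 108.4, 103.9, 113.5 and 119.7 CPM in cecum arsenic. It had 81.2, 68.83, 61.84, 64.62 and 65.92 CPM in colon control against 107.2, 111.8, 102.8 and 110.9 CPM in cecum control. The colon and cecum libraries do not overlap in either diet. The log2 change was -0.68 ± 0.071 in arsenic mice and -0.65 ± 0.08 in control mice (adjusted p = 5.21e-06 and 2.59e-05). Of the regulatory particle, Psmc5, an ATPase, was at -0.41 ± 0.07 and -0.41 ± 0.11 (adjusted p = 0.00032 and 0.00649), and Psmd4, a ubiquitin receptor, at -0.41 ± 0.077 and -0.80 ± 0.12 (adjusted p = 0.000739 and 0.000175). The chaperone Psmg4, which helps to build the alpha ring, was at -0.64 ± 0.16 and -0.77 ± 0.15 (adjusted p = 0.0045 and 0.00111).

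Of the immunoproteasome and PA28 genes, only Psme2 passed the test between colon and cecum, at -0.49 ± 0.14 in arsenic mice and -0.43 ± 0.15 in control mice (edgeR adjusted p = 0.0106 and 0.0326). The control call was lost in 6 of 9 fits that leave out 1 library, by RLE (adjusted p = 0.0564), by upper quartile (log2 change -0.299, adjusted p = 0.132) and by total counts (-0.14, 0.506). Psmb8 had estimates of 0.14 ± 0.24 and 0.39 ± 0.33 and Psmb9 of 0.17 ± 0.22 and 0.085 ± 0.27, and neither passed (adjusted p = 0.674, 0.34, 0.587 and 0.817). Whether these genes differ in this from the standard subunits was not tested.

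Against the ileum, the immunoproteasome and PA28 were lower in the colon as well, all 5 genes in both diets. In arsenic mice 44 of 46 members were lower in the colon and 1 higher, where 59.1% of 17022 genes were called, 26.3% lower and 32.8% higher. In control mice 35 were lower and 1 higher, where 52.2% of 16882 genes were called, 24.5% lower and 27.7% higher. The 1 higher member was Psme4 in arsenic mice and Psmd5 in control mice. The Psmd5 call was lost in 6 of 9 fits that leave out 1 library, by upper quartile (edgeR adjusted p = 0.0571) and with no filter (0.0826), and the Psme4 call with no filter (0.0575). All 35 members called lower in control mice were also called lower in arsenic mice, where they are 79.5% of the list.

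Psmb9, the immune counterpart of Psmb6, had 19.01, 34.34, 26.79 and 30.24 CPM in colon arsenic and 24.53, 31.65, 27.45, 27.2 and 19.56 CPM in cecum arsenic, against 87.65, 199.3, 154.2, 172.1 and 173 CPM in ileum arsenic. In control mice it had 31.55, 45.87, 27.35, 14.86 and 35.37 CPM in the colon and 31.71, 33.7, 19.04 and 32.8 CPM in the cecum, against 107.5, 106.7, 90.33 and 139.3 CPM in the ileum. Every ileum library lies above every colon and cecum library. The log2 change of colon over ileum was -2.43 ± 0.23 in arsenic mice and -1.84 ± 0.27 in control mice (SE, edgeR adjusted p = 8.85e-07 and 8.57e-05), and that of cecum over ileum was -2.60 ± 0.22 and -1.93 ± 0.29 (adjusted p = 1.95e-07 and 9.85e-05).

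Psmb8, the immune form of the chymotrypsin-like subunit, had 9.09, 19.65, 15.92 and 13.49 CPM in colon arsenic, against 42.42, 97.6, 69.73, 78.41 and 79.89 CPM in ileum arsenic. In control mice it had 27.53, 27.32, 16.14, 7.996 and 23.46 CPM in the colon, against 56.25, 54.79, 41.35 and 62.96 CPM in the ileum. The regions do not overlap in either diet. Its log2 change of colon over ileum was -2.26 ± 0.25 in arsenic mice and -1.40 ± 0.32 in control mice (edgeR adjusted p = 3.47e-06 and 0.00252). Psmb10, the immune form of the trypsin-like subunit, was at -1.44 ± 0.14 and -1.07 ± 0.15 (adjusted p = 8.52e-07 and 3.58e-05). Of the PA28 pair, Psme1 was at -1.45 ± 0.14 in arsenic mice and -1.07 ± 0.17 in control mice, and Psme2 at -1.61 ± 0.14 and -1.21 ± 0.15 (adjusted p = 5.75e-07, 0.000154, 2.81e-07 and 1.75e-05). In both diets the colon libraries and the cecum libraries of all 5 genes lay outside the range of the ileum. The share of all genes without such overlap was not computed.

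Of the standard subunits whose places these take, Psmb6 was at -0.96 ± 0.071 in arsenic mice and -0.93 ± 0.08 in control mice, Psmb7 at -0.44 ± 0.064 and -0.51 ± 0.086, and Psmb5 at -0.59 ± 0.093 and -0.23 ± 0.11, of which the last did not pass (edgeR adjusted p = 0.0906). Per kb of exon, the ratio of Psmb9 to Psmb6 was 0.214 ± 0.0436 in colon arsenic, 0.2316 ± 0.0833 in colon control, 0.1205 ± 0.0248 in cecum arsenic, 0.1377 ± 0.0287 in cecum control, 0.5952 ± 0.144 in ileum arsenic and 0.438 ± 0.0967 in ileum control (SD, n as listed above). The ratio of Psmb10 to Psmb7 was 5.482 ± 0.7 in colon arsenic, 6.034 ± 1.54 in colon control, 4.024 ± 0.328 in cecum arsenic, 4.182 ± 0.532 in cecum control, 11.1 ± 2.51 in ileum arsenic and 8.918 ± 1.36 in ileum control. By this measure Psmb10 exceeded Psmb7 in all 6 groups, and Psmb9 stayed under Psmb6 in mean. The merged exons span 3660 bases for Psmb9, 1872 for Psmb6, 1705 for Psmb10 and 3421 for Psmb7, and an expressed transcript can be shorter. The size of both ratios, and the order of Psmb9 and Psmb6 in ileum arsenic, depend on these lengths. Per kb, Psmb10 at 182 ± 35.5 CPM was the highest of the 46 members in ileum arsenic and Psme2 at 160.9 ± 20.3 CPM in ileum control, while the beta subunit Psmb4 was the highest in the other 4 groups, at 65.22 to 100.7 CPM. Its lead was small in colon control, at 70.69 CPM against 70.5 for Psmb10 and 69.87 for Psme2. So it was in colon arsenic (65.22 against 63.51 for Psmb10) and cecum arsenic (92.99 against 92.04 for Psma6). These ranks depend on the exon lengths as well.

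**Figure D2:**
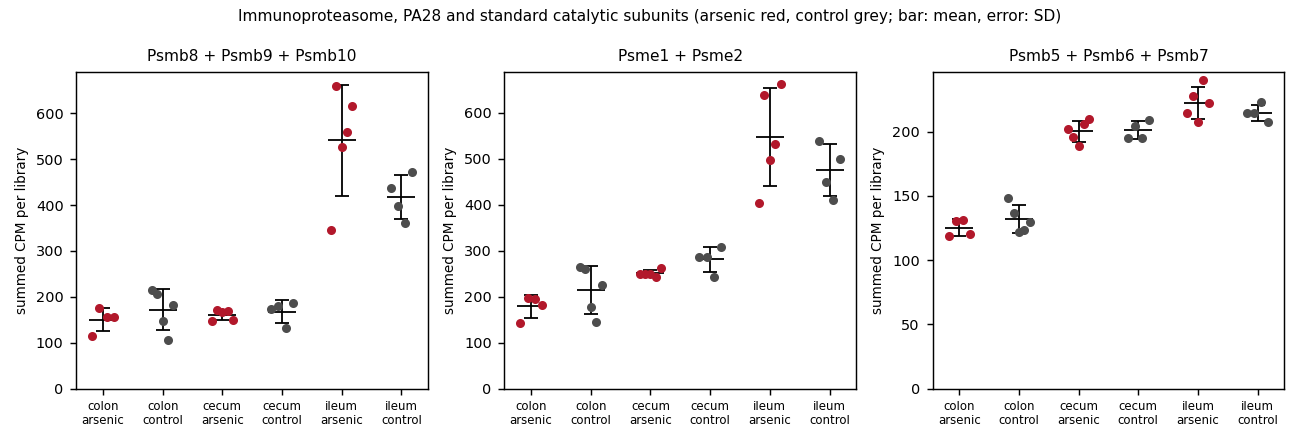
Points are libraries, and the bar and error are the mean and SD of the group, for the summed CPM of Psmb8 to Psmb10, of Psme1 and Psme2, and of Psmb5 to Psmb7. The immune catalytic sum is highest in the ileum (345.1 to 659.4 CPM in ileum arsenic and 360.6 to 472.3 CPM in ileum control), whereas the standard catalytic sum is lowest in the colon (125.1 ± 6.55 CPM in colon arsenic).

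Markers of T and innate lymphocytes moved with the ileum difference. The summed CPM of 8 markers of T and innate lymphocytes was 16.24 to 30.07 in colon arsenic, 18.41 to 37.74 in colon control, 24.35 to 43.07 in cecum arsenic, 18.36 to 27.48 in cecum control, 53.83 to 152.8 in ileum arsenic and 79.71 to 129.8 in ileum control. None of the 8 was at 0 in any library. Of 8 B cell markers, 3 were lower in the colon than in the ileum in arsenic mice and 0 in control mice, with 0 higher. Of 5 plasma cell markers, 1 was higher and 1 lower in arsenic mice, and 1 higher and 0 lower in control mice. Of 8 markers of macrophages and dendritic cells, 1 was higher and 3 lower in arsenic mice, and 1 higher and 0 lower in control mice. Of 8 epithelial markers, 3 were higher and 1 lower in arsenic mice, and 4 higher and 2 lower in control mice. Of 7 smooth muscle markers, 7 were higher in the colon than in the ileum in arsenic mice (median log2 change 1.30) and 3 in control mice (0.46), and of 6 fibroblast markers 5 in arsenic mice (0.73) and 3 in control mice (0.44). The part of these markers in the result was not tested. Of the 10 genes of MHC class I peptide loading, 8 were lower in the colon than in the ileum in arsenic mice and 5 in control mice, with 0 higher in either. Of all genes tested, 26.3% and 24.5% were lower. Within groups the 5 genes of the immunoproteasome and PA28 varied together over the 27 libraries, with a median r of 0.895 between pairs (lowest 0.741, highest 0.952), against 0.54 among the 31 standard subunits and 0.513 between both sets. These correlations describe libraries that share depth and composition.

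Psmg3, a chaperone that pairs with Psmg4 at the alpha ring, had the largest regional log2 change of the 46 members. It had 1.829, 3.179, 2.185 and 2.439 CPM in colon arsenic and 2.108, 2.14, 2.087, 4.514 and 2.804 CPM in cecum arsenic, against 15.41, 13.19, 15.89, 14.79 and 19.9 CPM in ileum arsenic. In control mice it had 3.705, 1.453, 1.303, 2.161 and 1.312 CPM in the colon and 2.562, 1.675, 2.045 and 2.918 CPM in the cecum, against 25.95, 19.85, 22.3 and 22.06 CPM in the ileum. The ileum stands clear of both other regions in either diet. Its log2 change of colon over ileum was -2.64 ± 0.24 in arsenic mice and -3.50 ± 0.27 in control mice (SE, edgeR adjusted p = 3.6e-07 and 1.42e-07). Its partner Psmg4 was at -0.53 ± 0.15 and -0.50 ± 0.15 (adjusted p = 0.0088 and 0.0143). The lowest library held 23 counts of Psmg3, and 9.68% of its exon length is shared with another annotated gene on the same strand.

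Cecum against ileum split the family. In arsenic mice 26 members were lower in the cecum and 3 higher, where 52.2% of 17022 genes were called, 27.1% lower and 25% higher. In control mice 13 were lower and 8 higher, where 54.9% of 16882 genes were called, 26.5% lower and 28.4% higher, so those counts are near or under the background. All 5 immunoproteasome and PA28 genes were lower in both diets. Of the 31 standard subunits, 17 were lower and 1 higher in arsenic mice, and 6 lower and 4 higher in control mice. By total counts the control split is 22 lower and 2 higher, with the all-gene median at -0.25, and by upper quartile 21 and 7. Of 8 epithelial markers, 3 were higher and 1 lower in the cecum than in the ileum in arsenic mice, and 6 higher and 1 lower in control mice. Of 7 smooth muscle markers, 2 were higher and 1 lower in arsenic mice, and 0 higher and 4 lower in control mice. Their part in the split was not tested. Psmd5, Psmd8 and Psme4 were called higher in the cecum in both diets, of which Psmd5 alone passed in every fit that leaves out 1 library and under every alternative tried. Psme4 in control mice was at 0.0995 by upper quartile and 0.0386 by total counts (adjusted p = 0.284 and 0.706) and was lost with no filter (0.0576). Psmd8 was lost by total counts in arsenic mice (adjusted p = 0.132) and control mice (0.135), and in arsenic mice with no filter (0.0544) and in 3 of 10 fits that leave out 1 library. Psmd5 was at 0.77 ± 0.092 in arsenic mice and 1.02 ± 0.11 in control mice (edgeR adjusted p = 5.63e-06 and 2.43e-06).

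Psmf1, the proteasome regulator PI31, and Psme3, which forms a nuclear activator, were called in opposite directions. Psmf1 was at -0.23 ± 0.084 for cecum over ileum in arsenic mice and 0.47 ± 0.1 in control mice, and Psme3 at -0.24 ± 0.088 and 0.49 ± 0.11 (SE, edgeR adjusted p = 0.0337, 0.00172, 0.0327 and 0.00189). Both arsenic calls were lost with the replicate block (adjusted p = 0.0656 for Psmf1 and 0.0609 for Psme3), with no filter (0.0945 and 0.0728), and in 6 and 5 of 10 fits that leave out 1 library. Without ileum arsenic libraries 14 and 15 they were lost as well, with log2 changes of -0.174 and -0.134 (adjusted p = 0.134 and 0.199). By total counts both control calls were lost (0.0791 and 0.0692). Without those libraries the arsenic counts are 22 lower and 4 higher for cecum over ileum, and 44 lower and 2 higher for colon over ileum.

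**Figure D3:**
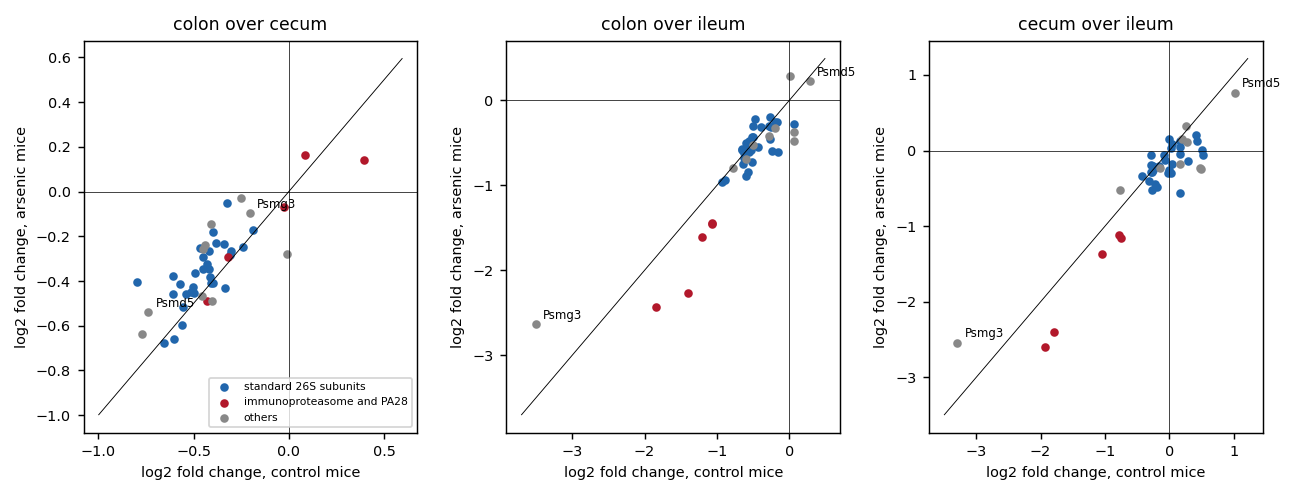
Each point is one of 46 members, placed by its log2 fold change between regions in arsenic mice (vertical) and in control mice (horizontal), with the line of equal change. Standard subunits crowd below 0 in the colon panels, and the 5 immunoproteasome and PA28 genes and Psmg3 lie furthest below 0 in arsenic mice where the ileum is the comparator.

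Few members passed the test between the diets. The cecum had the most, with 7 of 46 members lower on arsenic and 0 higher (15.2% called), where 25.2% of 15590 genes were called, 13.9% lower and 11.3% higher. In the ileum 2 were higher and 1 lower (6.52% called), where 7.3% of 16305 genes were called, 4.02% higher and 3.28% lower. In the colon edgeR called 0, where 0.649% of 16492 genes were called, 1 member had an unadjusted p under 0.05, and DESeq2 called 0. The share of members called in either direction is under the background in each region. The spread between libraries, as the common biological coefficient of variation of edgeR, was 0.2451 in the colon, 0.1304 in the cecum and 0.2426 in the ileum. Numbers of calls therefore do not rank the regions by size of effect. With 1 library left out, the ileum count ranged from 0 (without control 2) to 6 (without arsenic 11), and it was 1 without control 1 or control 3. Their median log2 change was -0.065 in the colon, -0.013 in the cecum and 0.031 in the ileum, beside -0.0069, 0.022 and -0.0022 for all genes. The split of the cecal calls depends on the scaling, at 4 lower and 3 higher by total counts (all-gene median 0.105) and 5 lower and 1 higher by upper quartile.

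**Figure D4:**
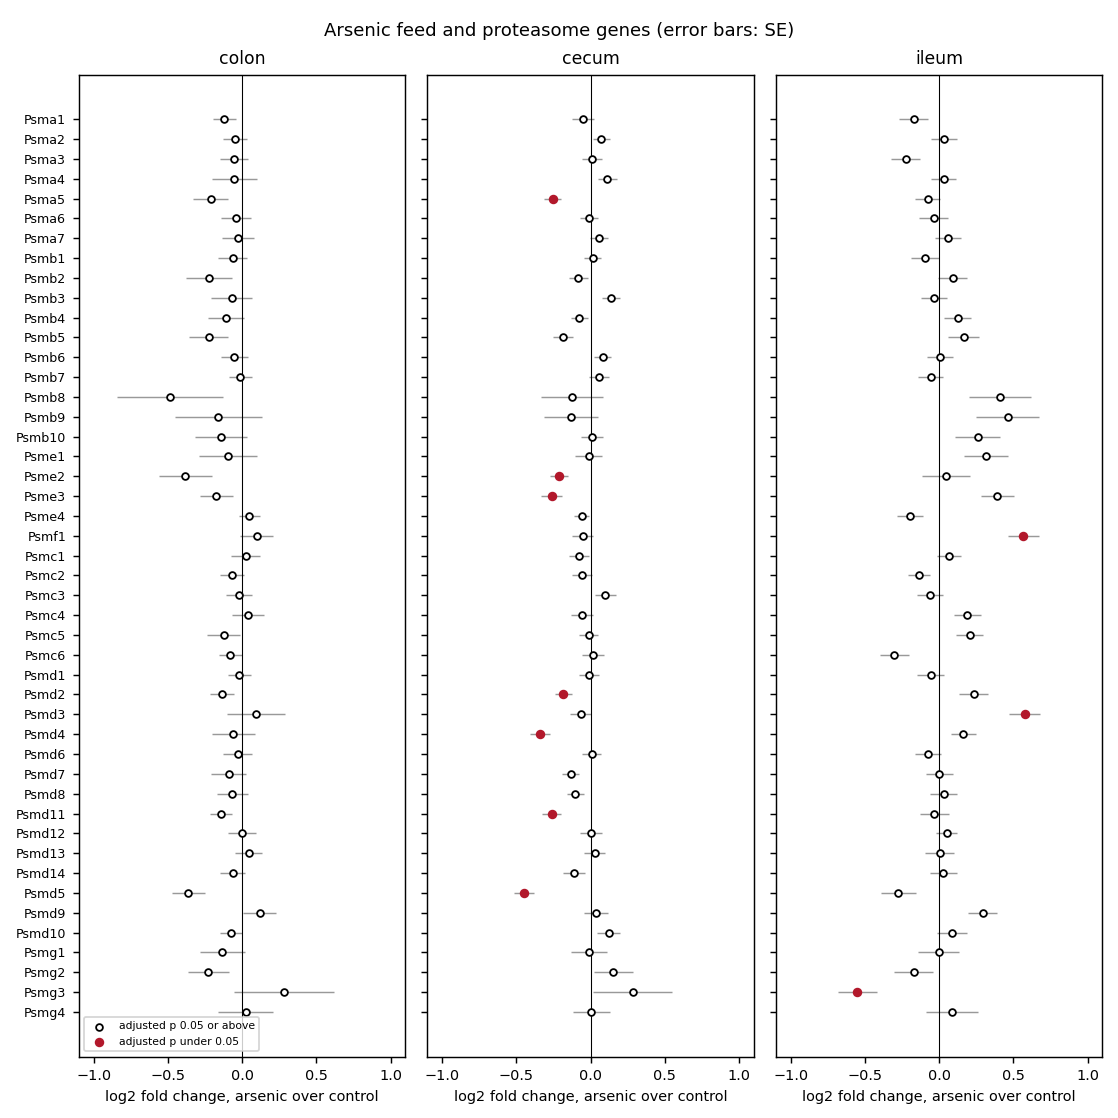
Points are the log2 fold change of arsenic over control for 46 members in the colon, the cecum and the ileum, with SE bars, and filled points passed the edgeR test. Filled points number 0 in the colon, 7 in the cecum, all left of 0, and 3 in the ileum.

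Psmd5, a chaperone of the base of the regulatory particle, had the smallest p of the members in the cecum. It had 57.11, 53.24, 59.96, 61.77 and 64.16 CPM in cecum arsenic against 78.09, 84.34, 81.52 and 88.69 CPM in cecum control. The groups do not overlap. The log2 change was -0.45 ± 0.067 (SE, edgeR adjusted p = 0.000328), and it passed in all 9 fits that leave out 1 library. In the colon it had 36.14, 38.88, 40.73 and 37.99 CPM on arsenic against 61.77, 52.35, 44.17, 42.84 and 47.13 CPM on control feed, which do not overlap, with an estimate of -0.36 ± 0.11 (adjusted p = 0.176). In the ileum it had 37.37, 29.96, 36.37, 40.82 and 28.59 CPM on arsenic against 37.88, 40.38, 43.42 and 41.81 CPM on control feed, which do overlap, with an estimate of -0.28 ± 0.12 (adjusted p = 0.176). Averaged over the regions the change was -0.36 ± 0.064 (limma voom adjusted p = 0.000323), it passed in all 27 fits that leave out 1 library, and the test of a difference between regions gave an adjusted p of 0.509.

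The other cecal calls were smaller. Psmd4 had 131.2, 109.1, 105.1, 124.4 and 123.6 CPM in cecum arsenic against 151.2, 153.8, 150.5 and 161.4 CPM in cecum control, a log2 change of -0.34 ± 0.068 (edgeR adjusted p = 0.00258). The groups do not overlap. Psma5, an alpha subunit, had 52.07, 53.99, 52.62, 53.75 and 56.02 CPM in cecum arsenic against 61.5, 67.2, 65.93 and 68.51 CPM in cecum control, also without overlap, at -0.26 ± 0.059 (adjusted p = 0.00579). Psme3 was at -0.26 ± 0.071 (adjusted p = 0.0144) and Psmd11, a subunit of the lid, at -0.26 ± 0.062 (adjusted p = 0.00724). Psme2 of PA28 was at -0.21 ± 0.061 (adjusted p = 0.0204) and Psmd2, a scaffold of the base, at -0.18 ± 0.057 (adjusted p = 0.027), and they lost the call in 2 and 5 of the 9 fits that leave out 1 library. By upper quartile Psme2 and Psmd2 lost it (adjusted p = 0.0674 and 0.105), and by total counts Psme2 (log2 change -0.129, adjusted p = 0.102), Psmd2 (-0.103, 0.197) and Psme3 (-0.177, 0.101). In a fit of all 27 libraries Psme2 (adjusted p = 0.31) and Psme3 (0.052) lost it.

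Cell markers also differed in the cecum between the diets, beside 25.2% of all genes tested, 11.3% higher and 13.9% lower. Of 8 markers of T and innate lymphocytes 5 were higher on arsenic, with sums of 24.35 to 43.07 CPM on arsenic against 18.36 to 27.48 CPM on control feed. Epithelial markers had 3 of 8 lower, with sums of 18230 to 21620 CPM on arsenic against 21460 to 23690 CPM on control feed. Markers of the large intestine had 4 of 6 lower, with sums of 28740 to 33460 CPM on arsenic against 33070 to 41370 CPM on control feed. Markers of ileum position went the other way, with 1 of 6 higher and all 6 estimates positive (median log2 change 1.12). Smooth muscle markers had 2 of 7 higher, fibroblast markers 2 of 6 higher, plasma cell markers 1 of 5 higher, and markers of macrophages and dendritic cells 1 of 8 higher and 1 lower. All 8 B cell markers had positive estimates (median log2 change 3.02), with sums of 10.19 to 209.7 CPM on arsenic against 2.821 to 43.94 CPM on control feed, and 0 passed. Their part in the 7 cecal calls was not tested. In the colon 0 markers of these lists passed between the diets, and in the ileum 1, a marker of the large intestine, which was higher on arsenic.

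In the ileum, Psmd3 and Psmf1 rose. Psmd3, a non-ATPase subunit of the lid, had 104.3, 121.6, 136.8, 140.3 and 129.4 CPM on arsenic against 81.86, 80.76, 79.59 and 87.59 CPM on control feed. The lowest arsenic library lies above the highest control library. The log2 change was 0.58 ± 0.1 (SE, edgeR adjusted p = 0.0138). Psmf1 had 29.42, 31.97, 37.85, 34.15 and 38.69 CPM on arsenic against 20.97, 20.87, 23.36 and 25.06 CPM on control feed. These groups do not overlap either, and the log2 change was 0.57 ± 0.11 (adjusted p = 0.0155).

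Both lost the call in 2 of 9 fits that leave out 1 library. Psmd3 did without ileum control 2 (edgeR adjusted p = 0.0659) and 3 (0.0524), and Psmf1 without ileum control 1 (0.051) and 2 (0.0738). Psmg3 fell, with 15.41, 13.19, 15.89, 14.79 and 19.9 CPM on arsenic against 25.95, 19.85, 22.3 and 22.06 CPM on control feed. The highest arsenic library just passes the lowest control library. The log2 change was -0.55 ± 0.13 (adjusted p = 0.0331), and the call was lost in 7 of 9 such fits and in a fit of all 27 libraries (adjusted p = 0.152). Without ileum arsenic libraries 14 and 15 the ileum had 3 calls, 2 higher and 1 lower.

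**Figure D5:**
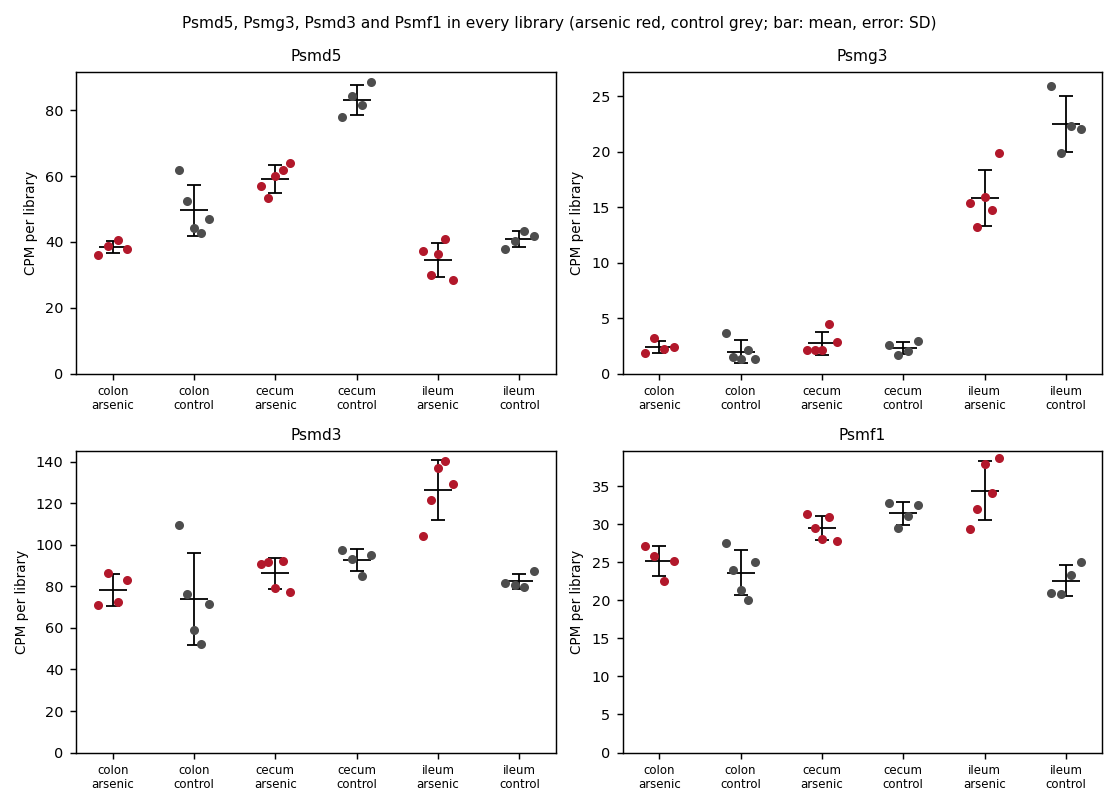
CPM of Psmd5, Psmg3, Psmd3 and Psmf1 in each library, with the mean and SD of each group. Psmd5 is lower in the arsenic libraries of the cecum (53.24 to 64.16 CPM, against 78.09 to 88.69 CPM on control feed), Psmg3 is highest in the ileum, and Psmd3 and Psmf1 are higher in ileum arsenic than in ileum control.

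No gene of the immunoproteasome passed in any region. In the ileum all 3 had positive estimates, 0.41 ± 0.21 for Psmb8, 0.46 ± 0.21 for Psmb9 and 0.26 ± 0.15 for Psmb10 (edgeR adjusted p = 0.256, 0.209 and 0.326). Ileum arsenic library 11 had the lowest level of each among the arsenic libraries, with Psmb10 at 215 CPM against 301.8 to 363 CPM in the other 4. In the cecum Psmb8 was at -0.13 ± 0.21, Psmb9 at -0.13 ± 0.18 and Psmb10 at 0.0082 ± 0.074 (adjusted p = 0.705, 0.639 and 0.948). In the colon they were at -0.49 ± 0.36, -0.16 ± 0.29 and -0.14 ± 0.17 (adjusted p = 0.606, 0.872 and 0.787), and the colon control libraries spread from 7.996 to 27.53 CPM of Psmb8. The test of a difference between regions gave adjusted p-values of 0.299, 0.354 and 0.333.

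Of PA28, Psme1 had estimates of -0.095 ± 0.2 in the colon, -0.013 ± 0.089 in the cecum and 0.31 ± 0.15 in the ileum (edgeR adjusted p = 0.892, 0.932 and 0.21). Psme2, lower in the cecum as given above, had -0.38 ± 0.18 in the colon and 0.048 ± 0.16 in the ileum (adjusted p = 0.353 and 0.891). Of the standard catalytic subunits, Psmb5 was at -0.23 ± 0.13 in the colon, -0.18 ± 0.067 in the cecum and 0.16 ± 0.11 in the ileum (adjusted p = 0.478, 0.0576 and 0.377). Psmb6 and Psmb7 lay nearer to 0, with Psmb6 at -0.053 ± 0.091, 0.081 ± 0.057 and 0.0062 ± 0.087 and Psmb7 at -0.013 ± 0.079, 0.059 ± 0.068 and -0.056 ± 0.085 in the same order, and neither passed. In the cecum DESeq2 (-0.189, adjusted p = 0.0499) and voom with sample weights (-0.191, 0.0403) called Psmb5 lower. By total counts edgeR called Psmb6 higher there (0.163, adjusted p = 0.037).

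Averaged over the regions, 4 members passed, Psmf1 higher and Psmd5, Psma5 and Psmd11 lower, where 16.3% of 17763 genes did, 7.58% higher and 8.73% lower (limma voom). Psmf1 was at 0.20 ± 0.06 (adjusted p = 0.0189), Psma5 at -0.17 ± 0.055 (0.0284) and Psmd11 at -0.14 ± 0.048 (0.0412). Psmd11 lost the call in 17 of 27 fits that leave out 1 library and Psma5 in 3. By upper quartile Psma5 and Psmd11 had adjusted p-values of 0.0559 and 0.0605, and by total counts of 0.214 and 0.228. By upper quartile and by total counts the split of 1 higher and 3 lower becomes 3 higher and 1 lower.

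The diet effect differed between the regions for 5 members, where 7.62% of 17763 genes did so (edgeR test of the interaction). Psmf1 had log2 changes of 0.098 in the colon, -0.052 in the cecum and 0.57 in the ileum (adjusted p of the difference 0.0045). In the same order Psme3 had -0.17, -0.26 and 0.39 (0.0044), and Psmd2 had -0.14, -0.18 and 0.23 (0.00668). Psmd3 had 0.095, -0.066 and 0.58 (0.0446), and Psmd4 had -0.059, -0.34 and 0.16 (0.0386). In each of the 5 the ileum estimate is the highest. Psmd3 and Psmd4 lost the call in 21 and 17 of 27 fits that leave out 1 library, and the other 3 lost it in none of these. Psmd3 and Psmd4 also lost it by RLE (adjusted p = 0.0612 and 0.0608), by upper quartile (0.126 and 0.146), with no filter (0.0623 and 0.0855) and without ileum arsenic libraries 14 and 15 (0.133 and 0.0867). By total counts Psmd2 (0.115), Psmd3 (0.184) and Psmd4 (0.198) lost it.

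Other genes of the pathway were counted by list. Of all genes tested, 4.02% were higher on arsenic in the ileum, 13.9% lower in the cecum and 0.649% called in the colon. Of 11 proteasome-associated genes outside the Psm names, 1 was higher on arsenic in the ileum, 2 were lower in the cecum and 0 passed in the colon. The ileal one was Adrm1, a ubiquitin receptor of the regulatory particle, with 73.34, 94.16, 94.91, 91.48 and 103.7 CPM on arsenic against 58.68, 55.92, 62.53 and 61.13 CPM on control feed, without overlap. Its log2 change was 0.58 ± 0.1 (SE, edgeR adjusted p = 0.0128, lost without ileum control 2 at 0.0659). The cecal pair were Zfand5, which stimulates the proteasome, and Akirin2, which carries proteasomes into the nucleus (known from human cells). Zfand5 had 97.17, 88.73, 101.3, 99.91 and 102.2 CPM on arsenic against 154.4, 160.5, 145.5 and 154.5 CPM on control feed in the cecum, without overlap, at -0.61 ± 0.06 (adjusted p = 1.38e-05). Akirin2 was at -0.30 ± 0.072 (adjusted p = 0.00726). Zfand2a, a proteasome partner that arsenite induces in cultured cells, was at -0.078 ± 0.17 in the colon, -0.40 ± 0.14 in the cecum and -0.33 ± 0.17 in the ileum (adjusted p = 0.9, 0.0582 and 0.266). In the cecum DESeq2 (-0.408, adjusted p = 0.014) and voom with sample weights (-0.378, 0.0403) called it lower.

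Nfe2l1, the gene of NRF1, which raises proteasome genes when the enzyme is inhibited, was at -0.12 ± 0.064 in the colon, -0.062 ± 0.054 in the cecum and 0.24 ± 0.12 in the ileum (edgeR adjusted p = 0.42, 0.423 and 0.261). A fit of all 27 libraries called Nfe2l1 higher in the ileum (0.279, edgeR adjusted p = 0.0197). Of the 8 genes of its route, Syvn1, a ubiquitin ligase of the endoplasmic reticulum, was lower in all 3 regions, at -0.56 ± 0.079, -0.53 ± 0.067 and -0.57 ± 0.14 in the same order (adjusted p = 0.0169, 0.000103 and 0.0339), and its calls in the colon and the ileum were lost in 4 and 6 of 9 fits that leave out 1 library. Ddi2, the protease that activates NRF1, was lower in the cecum, at -0.38 ± 0.08 (adjusted p = 0.0035). Of the ubiquitin genes, Uba6, an activating enzyme, was lower in the colon and the ileum, at -0.79 ± 0.11 and -0.57 ± 0.12 (adjusted p = 0.0173 and 0.0201). Leaving out 1 library lost the Uba6 call in 4 of 9 fits in the colon and 3 of 9 in the ileum. Without ileum arsenic libraries 14 and 15 the ileal calls of Uba6 (adjusted p = 0.0692) and Syvn1 (0.0601) were lost. In the cecum Rps27a, one of the ubiquitin precursors, was higher at 0.37 ± 0.07 and Ubqln4, a shuttle factor, lower at -0.48 ± 0.073 (adjusted p = 0.00185 and 0.000426).

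Of 10 genes of MHC class I peptide loading, 3 were lower in the cecum, beside 13.9% of all genes tested, and 0 passed in the ileum and the colon. Among the 3 were the chaperone Calr at -0.39 ± 0.084 and the loading factor Tapbp at -0.30 ± 0.078 (edgeR adjusted p = 0.00414 and 0.0107). Tapbp was lost in a fit of all 27 libraries (adjusted p = 0.235). Tap1, the peptide transporter, was at 0.012 ± 0.36 in the colon, -0.36 ± 0.26 in the cecum and 0.78 ± 0.26 in the ileum (adjusted p = 0.994, 0.366 and 0.0907). In the ileum DESeq2 (0.797, adjusted p = 0.0295) and voom with sample weights (0.815, 0.0496) called it higher. Irf1, which drives the immune subunits after interferon gamma, was at -0.077 ± 0.17, 0.19 ± 0.09 and -0.13 ± 0.21 in the same order (adjusted p = 0.898, 0.128 and 0.745). Ifng, the gene of interferon gamma itself, had too few counts to be tested, with at most 0.9097 CPM in a library. Of 6 tested genes of the interferon gamma signal, 2 were lower in the cecum, beside the same 13.9% of all genes. These were Jak2 at -0.20 ± 0.059 and Ifngr1 at -0.16 ± 0.055 (adjusted p = 0.0247 and 0.0471). Ifngr1 lost the call in 8 of 9 fits that leave out 1 library, by upper quartile (0.178), by total counts (-0.0744, 0.308), with no filter (0.0802), with a filter of 1 CPM (0.0528) and in a fit of all 27 libraries (0.437). Jak2 lost it in 2 of 9 fits, by upper quartile (0.0884), by total counts (-0.114, 0.164) and in the fit of all 27 libraries (0.299).

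Some members share sequence with other genes, and the strand setting of the counting was not given in the sources used here. Psme2b, a copy of Psme2 whose name lies outside the rule, held 22.16% to 25.36% of the counts of the pair in every library, so reads of Psme2 may be split between them and its level is uncertain. Exons overlap those of other genes over 14.73% of the exon length of Psmb8, 12.12% of Psmb5, 11.84% of Psmb7, 5.79% of Psmb9, where the neighbour is Tap1, and 25.51% of Psmd9, so their levels are uncertain as well.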

How the data were processed

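The labels describe poly-A RNA libraries made with the NEBNext Ultra kit. Raw counts of reads for each Ensembl gene were deposited by the authors. The submitters' processing notes name HISAT2 2.1.0, HTSeq 0.6.0, DESeq2 1.6.3 and SAMtools, with no roles. The genome build, annotation release and strand setting are not given in the sources used here. Symbols, biotypes and exon lengths came from GENCODE M21 (52403 of 52550 identifiers matched), and promoters from RefSeq.

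Genes were kept by filterByExpr (minimum count 10, minimum total 15), scaled by TMM and tested by robust quasi-likelihood F-tests in edgeR 4.0.16 (R 4.3.3). Diets were compared within a region, and regions within each diet. Averaging the diet effect over the regions was done in limma 3.58.1 (voom, with libraries of equal number treated as a correlated block through statmod 1.5.0). The interaction was an edgeR F-test. Changes are given ± SE and levels ± SD. The steps were tested on simulated data.

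All members may be named. For each comparison and role the 3 called members with the largest change each way come first, with all catalytic, immune and PA28 members in diet comparisons, the 2 called genes of smallest p per pathway list, and Zfand2a, Nfe2l1, Tap1 and Irf1. The members and lists were chosen with earlier results of these data known. One associated gene of the lists was not analysed here, and some genes of the ubiquitin list are not reported here. Alternatives were RLE, upper-quartile and total-count scaling, other filters, DESeq2 1.42.0, voom weights, a fit of all 27 libraries, a replicate block and libraries left out. Total-count scaling, and leaving out ileum arsenic 14 and 15 outside the ileum diet comparison, were chosen after seeing the data. Figures used matplotlib 3.10.9.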

Additional observations from a re-analysis of the deposited data

Results flagged for a closer look

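For 17 of the members named above, all 6 groups were searched for a library far from the rest (102 groups), and 5 were found. Chance flags about 1 in 20. Colon control library 1 was high for Psmd4, at 123.1 CPM against 73.1 to 85.87 CPM in the other 4, and for Psmb5, at 30.12 CPM against 20.37 to 22.52 CPM. Colon arsenic library 11 was low for Psme3, at 60.2 CPM against 64.22 to 64.82 CPM. Cecum control library 4 was low for Psmd11, at 85.96 CPM against 98.25 to 100.4 CPM, and for Psmb9, at 19.04 CPM against 31.71 to 33.7 CPM.

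The arsenic effect differed between regions by the edgeR test of the interaction for Psme3 (adjusted p = 0.0044), Psmf1 (0.0045), Psmd2 (0.00668), Psmd4 (0.0386) and Psmd3 (0.0446). It did so too for the associated genes Zfand5 (0.00245) and Adrm1 (0.00626), for Nfe2l1 (0.0354), for the ubiquitin genes Ubqln4 (0.0044) and Uba1 (0.0128), and for Tap2 (0.0274) and Calr (0.0434) of peptide loading. Several of these calls depend on the setting. Nfe2l1 lost it by RLE (0.0613), with no filter (0.136), by upper quartile (0.188), by total counts (0.32) and in 11 of 27 fits that leave out 1 library. Calr lost it by RLE (0.0689), with no filter (0.0907), by upper quartile (0.127), by total counts (0.165), without ileum arsenic 14 and 15 (0.148) and in 19 of 27 fits. Tap2 lost it by total counts (0.0505), by upper quartile (0.0512), with no filter (0.0628), without ileum arsenic 14 and 15 (0.08) and in 5 of 27 fits. Ubqln4 lost it by total counts (0.0558), and Uba1 in 1 of 27 fits.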

How the results depend on the processing

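Member counts under alternative settings, here and above, are given without the share of all genes called under the same setting. They do not show whether the members moved more than all genes. Counts of members called, of 46, moved as follows. In the ileum diet comparison 3 became 7 with DESeq2, 6 with voom weights and 6 in a fit of all 27 libraries, and ranged from 0 (without control 2) to 6 (without arsenic 11) with 1 library left out; it was 1 without control 1 or control 3. The colon had 0, 1 in the fit of all libraries, and 0 to 0 with a library left out. The cecum ranged from 5 to 8. The averaged effect stayed at 4 by upper-quartile and by total-count scaling, each turning the balance to 3 higher and 1 lower, and ranged from 2 (without colon arsenic 11, ileum control 3 or ileum control 5) to 6 (without colon control 1). The interaction went from 5 to 3 by RLE, 3 by upper quartile, 2 by total counts, 3 with no filter and 3 without ileum arsenic 14 and 15, and ranged from 3 to 7 (without colon control 1). Total counts gave 8 in place of 38 for colon over cecum in control mice, where Psmc3 (0.0474) and Psme4 (0.0375) turned positive, and 18 in place of 35 in arsenic mice; the cause was not tested. With 1 library left out, arsenic mice gave 32 to 40 (colon over cecum), 44 to 46 (colon over ileum) and 23 to 29 (cecum over ileum), and control mice 33 to 40, 33 to 40 and 19 to 23.

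Same-numbered libraries of different regions deviated together more often than others, with r over 0.1 in 13 of 24 pairs (median 0.12), against 9 of 97 differently numbered pairs (median -0.0282). The number was not taken as a pairing in the edgeR fits because the labels do not say that it means the same mouse. If it does, libraries of different regions are not independent in those fits. The averaged effect in limma does use the number as a block. With a replicate block the arsenic counts were 33, 45 and 27 and the control counts 39, 35 and 21 in the same order, and the interaction 5; without it the averaged effect had 5.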
